A study of Homo sapiens with 44 samples.

Results

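The 52 genes described here encode the machinery that makes ribosomes: RNA polymerase I with its factors, and the proteins that modify, cut, fold and package ribosomal RNA in the nucleolus. They were taken as a named list of symbols, without a cut on their values but with earlier results of these data known. All 52 were present and tested in both expression tables of the series, out of 18797 genes (GAS41 experiment) and 21159 genes (doxorubicin experiment). RNA came from HCT116, a human colon cancer cell line with intact p53. The GAS41 experiment had unedited cells (WT), cells in which GAS41 was knocked out (GAS41-KO), knockout cells that stably expressed GFP-Flag-GAS41 wt (wt rescue), and knockout cells that stably expressed GFP-Flag-GAS41 with the substitutions Y74A and W93A (mut rescue). The doxorubicin experiment had HCT116 p53+/+ cells given 500 nM doxorubicin (Dox) or the solvent DMSO, and each of these groups had 3 libraries. Both rescue groups carried the knockout as well as the transgene, and the labels give neither its promoter nor the number of clones behind a group.

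RNA polymerase I copies the ribosomal DNA repeats into 1 long precursor, which small nucleolar ribonucleoproteins (snoRNPs) modify and which the processome and later assembly factors cut and build into the small and large ribosomal subunits. These genes are transcribed in concert with growth, and MYC is a well-known activator of many of them, binding with MAX to the E-box sequence CACGTG. GAS41, the product of YEATS4, binds acylated lysines of histone H3 with its YEATS domain and belongs to chromatin-modifying complexes. Doxorubicin poisons topoisomerase II and is known to inhibit RNA polymerase I transcription. The title of the series concerns histone H3 crotonylation and gene repression.

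The E-box stood close to the transcription start of many of the genes, and the sequences below show where. RefSeq promoters (GRCh38.p14, 250 bases before to 50 after a start) were at hand for 43 of the 52 genes in 52 windows, since some genes have several starts. CACGTG, which reads the same on both strands, occurred in 18 of the 52 windows (34.6%), each of a different gene. It occurred in 25% of 144 windows of 122 other ribosome biogenesis and RNA polymerase III genes, in 9.06% of windows of genes tested in the GAS41 table, and in 7.26% of all 35116 windows. The 18 windows held 20 such sites, of which 16 lay within 40 bases of the start, 12 after it and 8 before it in all. The places of sites in other windows were not counted, so closeness to the start is not shown to be particular to these genes. Other motifs searched on both strands were the ETS motif CCGGAAGT in 11 of 52 windows (21.2%, against 4.14% of all), CCAAT in 19 (36.5%, against 34.6%), the E2F motif TTTCCCGC in 1 and the palindromic NRF1 motif in 3 (5.77%, against 1.24%). In windows of the other ribosome biogenesis and RNA polymerase III genes, the ETS motif occurred in 21.5% and the NRF1 motif in 4.17%. In windows of genes tested in the GAS41 table these shares were 7% and 1.86%. A match is a string of letters and no evidence of binding. Of the 18 genes, 10 are shown: the 6 with the largest falls on the log2 scale in GAS41-KO (UTP20 to PES1) and 4 others picked by hand as examples. For each, 30 bases around the site are given 5′ to 3′ on the strand of the gene, with the E-box in capitals.

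UTP20 (chr12:101280083-101280112, plus strand, E-box 10 bases before the start): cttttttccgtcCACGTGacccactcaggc
MRTO4 (chr1:19251807-19251836, plus strand, E-box at base 15 of the transcript): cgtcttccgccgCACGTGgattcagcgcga
DDX21 (chr10:68956604-68956633, plus strand, 31 bases before the start): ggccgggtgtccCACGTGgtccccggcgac
WDR43 (chr2:28894658-28894687, plus strand, base 4): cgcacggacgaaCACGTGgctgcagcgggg
BYSL (chr6:41921515-41921544, plus strand, base 29): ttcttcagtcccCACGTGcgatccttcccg
PES1 (chr22:30591880-30591909, minus strand, base 14): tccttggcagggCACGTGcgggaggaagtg
RRP9 (chr3:51941892-51941921, minus strand, 5 bases before the start): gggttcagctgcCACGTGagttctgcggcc
NOL6 (chr9:33473894-33473923, minus strand, base 14): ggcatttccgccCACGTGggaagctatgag
FBL (chr19:39846356-39846385, minus strand, base 7): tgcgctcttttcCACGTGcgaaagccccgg
NAT10 (chr11:34105602-34105631, plus strand, 15 bases before the start): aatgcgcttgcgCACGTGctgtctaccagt

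The 18 genes with CACGTG had a median log2 change of -0.50 in GAS41-KO against WT, and the 25 with a promoter window and no CACGTG had -0.43. Between mut rescue and wt rescue these medians were -0.60 and -0.51, and with doxorubicin -0.34 and -0.48. The ranges of both sets overlapped in each of the 3 comparisons. In GAS41-KO they ran from -0.98 to -0.22 with the E-box and from -0.74 to 0.47 without it.

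Levels below are normalized reads, the reads of a library over its size factor, in the order of replicates 1, 2 and 3 or as mean ± SD (n = 3). A fold divides one group mean by the other. Log2 changes use the deposited variance-stabilized scale, which shrinks changes of genes with few reads. A gene was called when limma's Benjamini-Hochberg adjusted p over all tested genes was under 0.05, and a call is written as rose or fell. Depth per library ran from 16857982 to 18546135 reads with GAS41 and from 17442035 to 18894312 with doxorubicin. No 2 replicates of a group agreed within sampling noise. The chi-square per gene reached 21.87 between DMSO replicates 1 and 3 and 17.31 between mut rescue replicates 2 and 3. Among the wt rescue libraries, replicate 1 stood apart (chi-square per gene 29.39 and 19.52 against replicates 2 and 3, which gave 3.33 between them), so counts and medians of the 52 genes in comparisons with wt rescue are also given without it. The colon cancer cells had high KRT8, KRT18, KRT19 and EPCAM, while VIL1 and LGALS4 of differentiated colon epithelium averaged 1 normalized read in WT. The blood marker PTPRC averaged 0 in WT, and the endothelial marker CDH5 also 0. The labels speak of biological replicates without naming cultures. If they were not grown apart, each p reflects library-to-library spread alone, which may be technical.

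YEATS4 RNA was 618 ± 8.98 normalized reads in WT and 349 ± 32.3 in GAS41-KO, so a transcript remained. YEATS4 RNA was 3253 ± 323 in wt rescue and 2482 ± 108 in mut rescue, so both were above WT and mut rescue was 0.763 of wt rescue (limma adjusted p = 0.000443). Reads of the transgene and of the remaining transcript were not separated. MYC read 5716, 5814 and 5908 in WT, 3572, 3645 and 3669 in GAS41-KO, 6531, 7833 and 7549 in wt rescue, and 4872, 5951 and 4833 in mut rescue. Its group means ran in the order GAS41-KO, mut rescue, WT, wt rescue from low to high, as did those of 40 of the 52 genes. In mut rescue against WT, however, MYC was not called (log2 change -0.16), and mut rescue replicate 2 was above all WT libraries. Of the 52 genes, 25 were not called in that comparison. The part of MYC in the changes of the 52 genes was not tested.

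Nearly the whole list was lower in GAS41-KO cells than in WT cells. In GAS41-KO against WT, 47 of 52 genes fell and 1 rose by limma, where 26.6% of all tested genes fell and 26.0% rose. Their median log2 change was -0.45, against -0.01 over all tested genes. The libraries of a group lay close together: the median of the 52 genes relative to WT was -0.45, -0.48 and -0.45 in the 3 GAS41-KO libraries. Of the 7 tested markers of colon epithelium, 2 rose and 3 fell in these cells. EPCAM and CDH1, both epithelial adhesion genes, went from 7503 to 915 and from 1419 to 138 normalized reads, and the keratins KRT8 and KRT18 from 26988 to 36697 and from 12799 to 16706. Summed fibroblast markers were 240 to 311 reads in GAS41-KO and 270 to 308 in WT, and summed endothelial markers 24.0 to 34.6 and 18.9 to 23.9. Summed blood and immune markers were 220 to 245 in GAS41-KO and 196 to 215 in WT. Among the tested genes of these lists, COL3A1 (1 in WT, 19 in GAS41-KO) and LYZ (20 and 46) rose, while COL1A1 and CD68 were not called. Less RNA per cell from these genes and a smaller share of cells that express them cannot be told apart in bulk RNA.

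**Figure D1:**
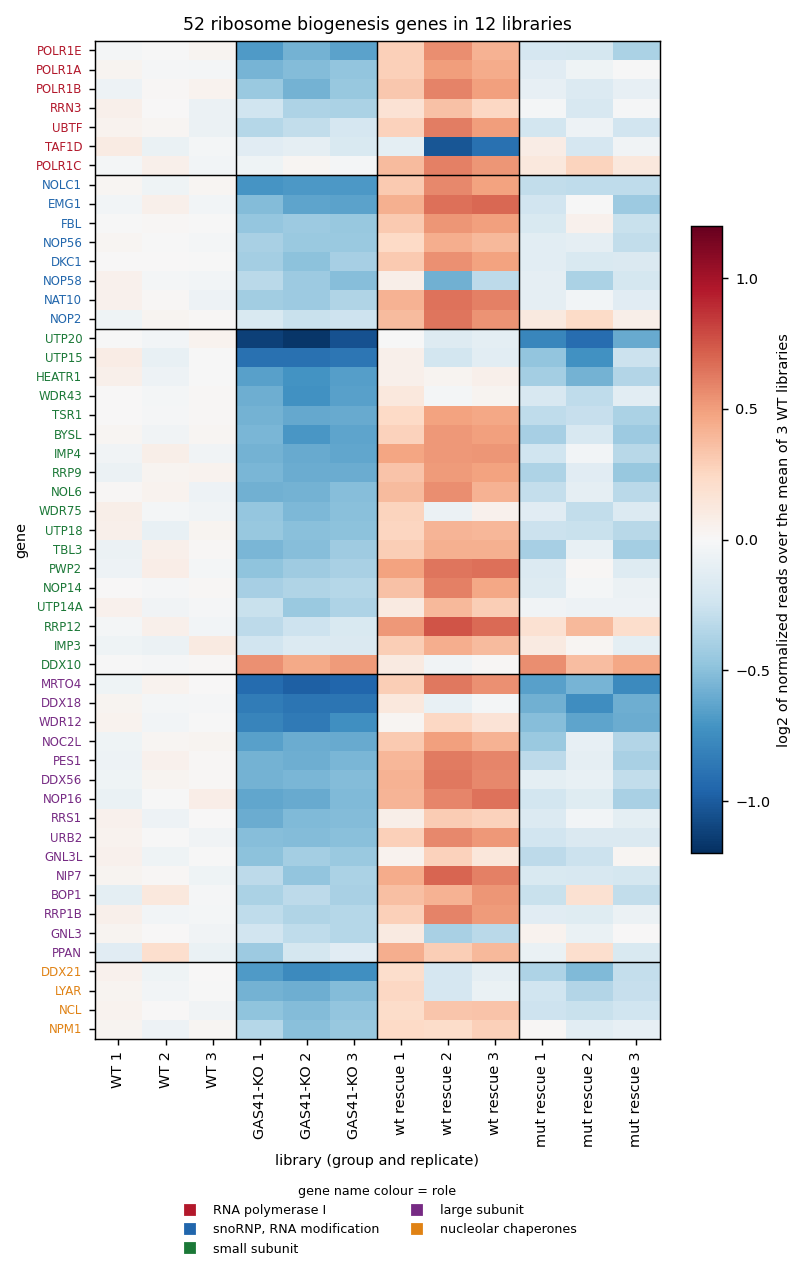
Heat map of the 52 genes (rows, name colour giving the role) in the 12 libraries of the GAS41 experiment (columns), coloured by the log2 ratio of normalized reads to the mean of the 3 WT libraries. GAS41-KO columns are blue or near white for all genes but DDX10, which is red, wt rescue columns are mostly red, and wt rescue replicates 2 and 3 are blue for TAF1D, NOP58 and GNL3.

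Of the 7 RNA polymerase I genes, 5 fell in GAS41-KO. POLR1E, a subunit that helps the enzyme initiate and elongate, read 1288, 1304 and 1337 in WT and 816, 882 and 837 in GAS41-KO, with no overlap (log2 change -0.56, SE 0.069, adjusted p = 5.37e-06). POLR1A, the largest subunit of the catalytic core, had 2436, 2358 and 2350 reads in WT and 1620, 1660 and 1712 in GAS41-KO, a fold of 0.699. POLR1B, the second-largest subunit, was 28.8% lower. The transcription factors of the enzyme had smaller estimates. UBTF, which bends and opens ribosomal DNA, fell from 3095 ± 129 to 2557 ± 128 (adjusted p = 0.0108), and RRN3, which links the polymerase to its promoter factors, from 2031 ± 90.1 to 1615 ± 86.9. RRN3 has pseudogene copies that are listed separately in the tables, so how reads were split among them is uncertain. POLR1C, which is shared with RNA polymerase III, was 1002 ± 34.9 in WT and 991 ± 27.1 in GAS41-KO, and TAF1D, of the promoter factor SL1, was 1483 ± 91.6 and 1344 ± 35.5. Neither passed the test.

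All 8 snoRNP and RNA modification genes fell in GAS41-KO, with a median log2 change of -0.41. NOLC1, a nucleolar chaperone of snoRNPs, read 13622, 12921 and 13557 in WT and 8207, 8265 and 8283 in GAS41-KO, a fold of 0.617 (adjusted p = 2.11e-07). EMG1, which methylates a pseudouridine of small-subunit RNA, was 33.9% lower. DKC1, the pseudouridine synthase of box H/ACA snoRNPs, had 3937, 3925 and 3895 reads in WT and 2959, 2792 and 2979 in GAS41-KO. FBL, the 2′-O-methyltransferase of box C/D snoRNPs, fell from 6278 ± 40.7 to 4588 ± 44.1, and its partners NOP56 and NOP58 fell by 25.6% and 25.4%. The smallest change of the group was that of NOP2, a cytosine methyltransferase, at a log2 change of -0.22.

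Of the 18 small-subunit genes 16 fell and 1 rose. UTP20, a large scaffold of the processome, changed most of all 52 genes: 1607, 1575 and 1658 reads in WT against 740, 717 and 781 in GAS41-KO (log2 change -0.98, SE 0.069, adjusted p = 7.57e-09). HEATR1, which works both in the processome and with RNA polymerase I, read 4168, 3834 and 3984 in WT and 2545, 2429 and 2525 in GAS41-KO. UTP15 was 45.9% and WDR43 36.4% lower, and both belong to the processome subcomplex that joins ribosomal DNA transcription to processing. DDX10, an RNA helicase, went the other way. Its 3 WT libraries read 1738, 1724 and 1762 and its GAS41-KO libraries 2551, 2390 and 2483, a fold of 1.42 with no overlap (adjusted p = 8.87e-06). IMP3, which holds the U3 snoRNA to the precursor, did not pass the test at 1062 ± 75.1 in WT and 933 ± 22.4 in GAS41-KO.

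Of the 15 large-subunit genes 14 fell. MRTO4, which holds a place on the pre-60S particle for a stalk protein, read 2016, 2143 and 2091 in WT and 1102, 1054 and 1078 in GAS41-KO, a fold of 0.518 (adjusted p = 1.13e-07). DDX18, a helicase, had 4473, 4308 and 4331 reads in WT and 2451, 2378 and 2380 in GAS41-KO. WDR12 and PES1, which form the PeBoW complex with BOP1, were 42.2% and 32.6% lower, and BOP1 was 22.0% lower. PPAN was the 1 member of the group not called, at 91.4 ± 11.7 reads in WT and 76.7 ± 7.92 in GAS41-KO, the lowest counts of the list. All 4 nucleolar chaperones and RNA-binding proteins fell. NCL (nucleolin) went from 39947, 38975 and 37813 reads to 27796, 27129 and 28029, and DDX21, a helicase of RNA polymerase I and II transcription, from 11037, 10273 and 10706 to 6657, 6288 and 6410. NPM1, the histone chaperone nucleophosmin, was 25.9% lower, with the limit that its processed pseudogenes may share its reads.

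Cells given normal GAS41 had more RNA from nearly all of these genes than GAS41-KO cells. In wt rescue against GAS41-KO 48 of 52 rose and 2 fell, where 33.0% of tested genes rose and 33.0% fell. The median log2 change was 0.79. NOLC1 read 16599, 19890 and 18648 in wt rescue, 2.23 times its GAS41-KO mean (adjusted p = 4.26e-10), and EMG1 2.29 times. MRTO4 had 2564, 3234 and 3040 reads, 2.73 times GAS41-KO, the largest rise of the list (log2 change 1.33, SE 0.076, adjusted p = 5.48e-10). Without wt rescue replicate 1, 48 rose, 2 fell and the median was 0.84.

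Against WT, 38 of 52 genes were higher in wt rescue and TAF1D was lower, where 27.4% and 22.7% of tested genes were. The median log2 change was 0.39 with all libraries, 0.45 without wt rescue replicate 1 (39 higher), 0.26 with that replicate alone and 0.25 after quantile normalization. RRP12, which takes part in subunit maturation and export, was 2858 ± 240 in wt rescue and 1815 ± 62.5 in WT, a fold of 1.57. POLR1B, POLR1C and UBTF were 1.39, 1.42 and 1.38 times WT. Several genes with large falls in GAS41-KO were not called against WT: UTP20 was 1514 ± 78.5 in wt rescue and 1613 ± 42.0 in WT, DDX18 4388 ± 347 and 4371 ± 89.1, and HEATR1 4140 ± 42.0 and 3995 ± 167. MRTO4, another of these, was 1.41 times WT and called (adjusted p = 0.000241).

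**Figure D2:**
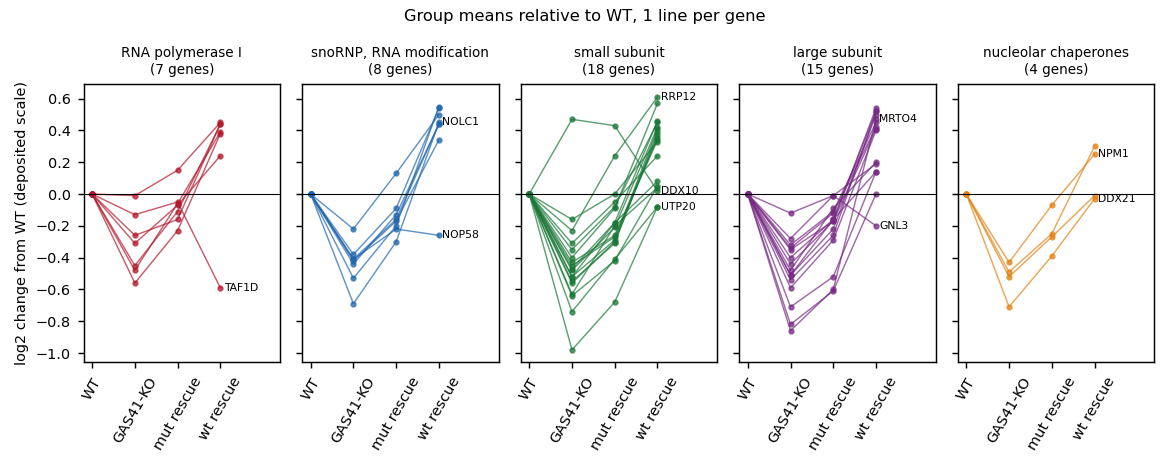
Group means as log2 change from WT on the deposited scale, 1 line per gene and 1 panel per role, in the order WT, GAS41-KO, mut rescue, wt rescue. For 40 of 52 genes the order from low to high was GAS41-KO, mut rescue, WT, wt rescue; DDX10 and TAF1D run against their panels.

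Cells given the mutant transgene lay between GAS41-KO and wt rescue for most of the genes. In mut rescue against GAS41-KO 36 of 52 rose and 0 fell by limma, where 5.92% of tested genes rose and 9.0% fell, and 51 of the 52 estimates were above 0. The median log2 change was 0.26. RRP12 rose the most, from 1464, 1527 and 1594 reads in GAS41-KO to 2055, 2371 and 2095 (log2 change 0.47, adjusted p = 0.000319), and POLR1A had 2170, 2291 and 2368 reads, 1.37 times GAS41-KO. NOLC1 read 10879, 10811 and 10810. The number called depended on single libraries: 20 rose without GAS41-KO replicate 2, 22 without GAS41-KO replicate 3 and 22 without mut rescue replicate 1. A minimum log2 change of 0.3 left 17.

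Measured directly against wt rescue, mut rescue was lower for 48 of 52 genes, also without wt rescue replicate 1, and higher for DDX10 and TAF1D, where 31.3% of tested genes were lower and 29.8% higher. The median log2 change was -0.56, and -0.59 without that replicate. Among RNA polymerase I genes POLR1E read 1140, 1131 and 1005 in mut rescue and 1600, 1929 and 1752 in wt rescue (log2 change -0.62, SE 0.069, adjusted p = 1.71e-06), and POLR1B 1952, 1868 and 1956 against 2627, 3161 and 2939. Of the snoRNP genes NOLC1 had a fold of 0.589 and DKC1 read 3582, 3443 and 3472 against 4887, 5744 and 5461. TSR1, a GTPase-like factor of late small-subunit assembly, read 2273, 2319 and 2169 against 3311, 3926 and 3873, and UTP18, a processome protein, 1979, 1966 and 1874 against 2838, 3147 and 3110. The groups did not overlap for any of these.

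MRTO4 showed the largest difference of the list, with 1326, 1414 and 1225 reads in mut rescue, 55.1% below wt rescue (log2 change -1.07, SE 0.076, adjusted p = 1.22e-08). NIP7, which acts in large-subunit RNA processing, read 1482, 1472 and 1453 against 2281, 2714 and 2556. NCL had 32812, 32252 and 32954 reads against 45456, 49085 and 49456, and NPM1 51077, 46449 and 47419 against 59713, 59055 and 61874. YEATS4 itself was 23.7% lower in mut rescue than in wt rescue, so the amount of YEATS4 RNA and the substitutions cannot be told apart here. Of the 7 tested markers of colon epithelium, 5 were lower and 0 higher in mut rescue than in wt rescue. EPCAM and CDH1 averaged 1670 and 163 normalized reads in mut rescue and 9012 and 1350 in wt rescue. The part of this difference between the cells was not tested. Against WT, mut rescue was lower for 25 genes and higher for 2, RRP12 and DDX10, where 22.9% and 23.5% of tested genes were, with a median of -0.17. A minimum log2 change of 0.3 left 9 lower and 1 higher.

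GAS41-KO against WT and mut rescue against wt rescue share no library, so they can be set beside each other. Of the 47 genes lower in the first and the 48 lower in the second, 45 were lower in both (95.7% and 93.8%). Of all 52 genes 90.4% were lower in the first and 92.3% in the second, so a high overlap follows from these counts alone. Over all tested genes the overlap shares were 73.4% and 62.3%. Without wt rescue replicate 1 the shared genes were again 45, of 47 and 48, and the shares over all tested genes 73.3% and 57.4%. GNL3 and NOP58 were lower only by the first test and IMP3, POLR1C and PPAN only by the second, with no test of that difference. The log2 changes of the 52 genes in both comparisons had a Pearson r of 0.61 (0.52 without wt rescue replicate 1), a description across genes of the same libraries. DDX10 was higher in both: it read 2566, 2252 and 2403 in mut rescue and 1873, 1691 and 1760 in wt rescue.

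**Figure D3:**
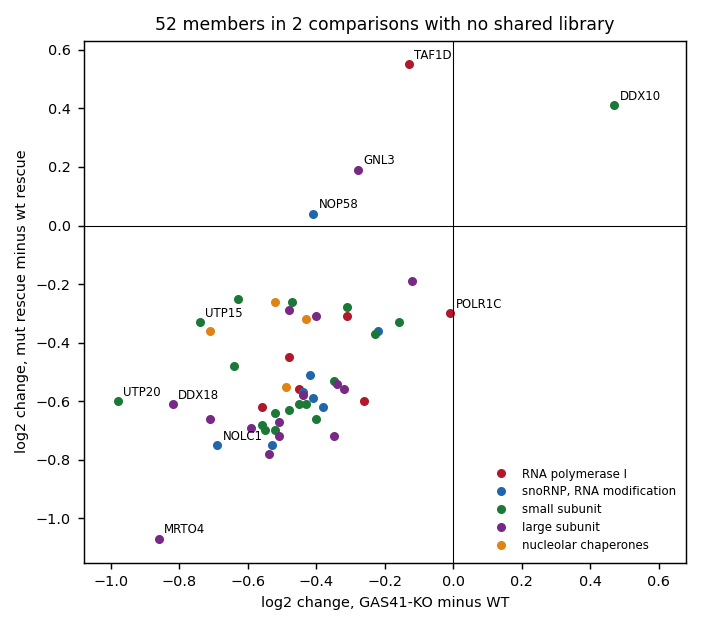
Log2 change of each of the 52 genes in GAS41-KO minus WT (x axis) and in mut rescue minus wt rescue (y axis), coloured by role. Most points lie at the lower left, where both are negative; DDX10 is positive on both axes, and TAF1D, GNL3 and NOP58 are negative on the x axis and positive on the y axis.

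The wt rescue libraries disagreed on a few genes. TAF1D read 1371 in replicate 1 but 730 and 797 in replicates 2 and 3, below the GAS41-KO values of 1348, 1377 and 1306. NOP58 read 4624 in replicate 1 and 2967 and 3556 in the others, and GNL3, the GTPase nucleostemin, read 6494, 4594 and 4815. LYAR (2627, 1921 and 2088) and DDX21 (12344, 9273 and 9901) were high in the same replicate. In all, 7 of 52 genes were over 0.2 log2 higher in replicate 1 than in the mean of replicates 2 and 3 (13.5%), while 39 were below 0 (75.0%). Over all tested genes these shares were 14.7% and 60.6%, so the number over 0.2 was near that of the table as a whole. TAF1D, NOP58 and GNL3 are known hosts of snoRNAs in their introns, a feature considered after these values were seen. NCL, NOP56 and DKC1 are hosts too and were lower in replicate 1, NOP56 at 8301 against 9506 and 9195.

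The result for these genes depends on that replicate. TAF1D fell in wt rescue against GAS41-KO by 0.47 on the log2 scale (adjusted p = 0.00902), by 0.71 without replicate 1 (6.19e-08), and with replicate 1 alone the change was 0.03 (0.838). NOP58 was 0.04 higher in mut rescue than in wt rescue with all libraries (0.774), 0.20 higher without replicate 1 (0.0309) and with it alone the change was -0.29 (0.0191). GNL3 was 0.19 higher (0.104), and 0.34 higher without replicate 1 (3.33e-05). Without replicate 1, DDX10, TAF1D, GNL3 and NOP58 (4 genes rather than 2) were higher in mut rescue than in wt rescue, and TAF1D, GNL3, NOP58 and DDX21 (4 rather than 1) were lower in wt rescue than in WT. Long transcripts moved with the same libraries: the median of 40 of them relative to WT was -0.10, -0.32 and -0.32 in wt rescue replicates 1, 2 and 3, and between 0.01 and 0.23 in mut rescue. The part of this shift in the results was not tested. With wt rescue replicate 1 as the only library of its group, assumed to vary like the others, 50 genes rose and 1 fell against GAS41-KO, and 44 were lower in mut rescue than in wt rescue.

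**Figure D4:**
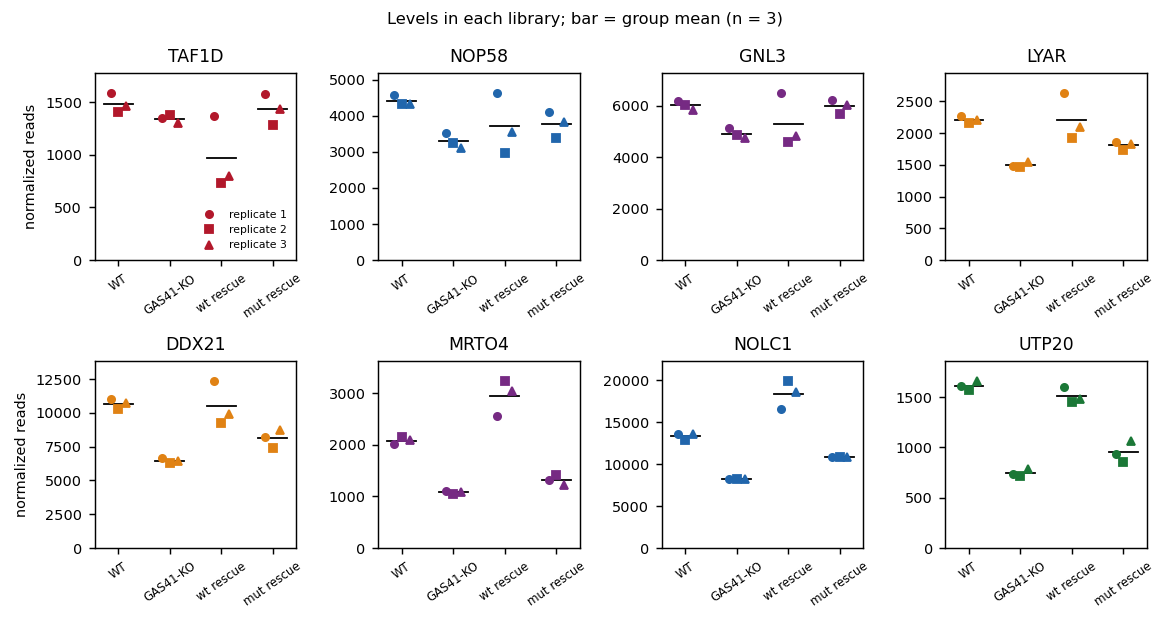
Normalized reads (linear axis from 0) of 8 genes in each of the 12 GAS41 libraries, with symbols for the replicate and a bar for the group mean. TAF1D, NOP58, GNL3, LYAR and DDX21 are higher in wt rescue replicate 1 than in replicates 2 and 3, UTP20 slightly so, and MRTO4 and NOLC1 lower.

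Other genes of the pathway mostly fell in GAS41-KO as well. Of 144 further genes in 7 lists, 110 fell and 4 rose in GAS41-KO, where 26.6% of all tested genes fell and 26.0% rose. The median log2 change of the 144 was -0.37. In mut rescue against wt rescue 112 were lower and 4 higher, where 31.3% and 29.8% of all tested genes were. Without wt rescue replicate 1, 108 were lower and 12 higher. In GAS41-KO 32 of 37 large-subunit factors fell and 1 rose, and 29 of 33 small-subunit factors fell. Of 21 RNA polymerase III genes 10 fell and 3 rose in GAS41-KO (47.6% and 14.3%). TCOF1 (treacle), which works with UBTF and RNA polymerase I, fell from 4046 ± 53.9 to 2251 ± 72.5 reads and was 5344 ± 317 in wt rescue and 2725 ± 214 in mut rescue. POLR3G, a subunit of RNA polymerase III, fell from 2083 ± 80.3 to 859 ± 64.3. The small-subunit factor KRR1 fell from 2036 ± 68.4 to 1031 ± 62.9 and the exosome subunit EXOSC9 from 1708 ± 18.8 to 951 ± 24.4. CD3EAP, an older name for an RNA polymerase I subunit, fell from 290 ± 22.6 to 157 ± 12. EIF6, which keeps the large subunit from joining early, was 4291 ± 256 in wt rescue and 2468 ± 379 in mut rescue. BDP1, of the polymerase III factor TFIIIB, was lower in wt rescue (789 ± 507) than in GAS41-KO (1814 ± 72.0), with a large spread between libraries.

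Most genes of the ribosomal proteins themselves did not pass the test in GAS41-KO. Of 36, 5 rose and 2 fell (13.9% and 5.56%), where 26.0% of all tested genes rose and 26.6% fell. The median log2 change of the 36 was 0.08. In wt rescue against WT 31 rose and 0 fell by limma, where 27.4% of tested genes rose, and the median was 0.27. Without wt rescue replicate 1 they were 35 and 0, with a median of 0.34. With doxorubicin 26 fell and 1 rose (72.2% and 2.78%), where 33.4% and 32.3% of all tested genes did. A test between these genes and the assembly factors was not made.

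Doxorubicin lowered most of the 52 genes and raised a few. Of the list 36 fell and 4 rose, where 33.4% of tested genes fell and 32.3% rose, and the median log2 change was -0.41 against -0.01 over all tested genes. YEATS4 fell from 694, 612 and 698 reads to 173, 193 and 188. MYC read 7129, 6945 and 6404 in DMSO and 6074, 6091 and 5958 with doxorubicin, a log2 change of -0.17 that is just past the threshold (adjusted p = 0.0499) and not called under 9 of 13 alternatives, 5 of them single libraries left out. KRT8 was 41323 in DMSO and 91614 with doxorubicin, so other abundant transcripts also shifted.

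**Figure D5:**
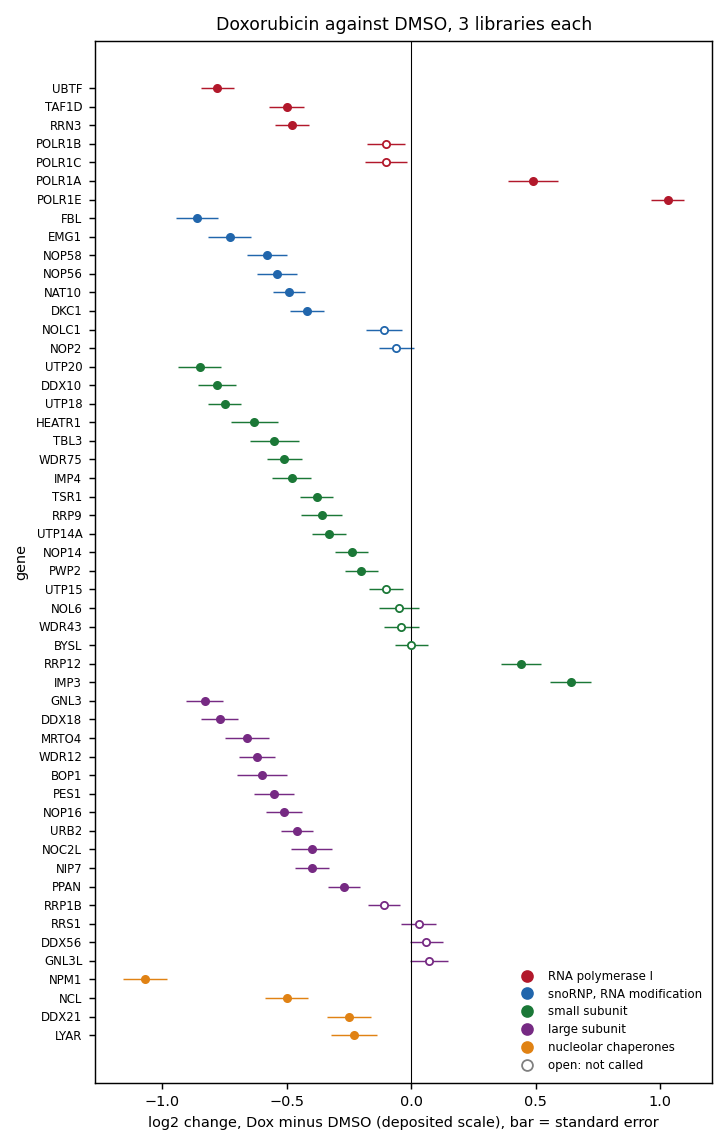
Log2 change with doxorubicin against DMSO on the deposited scale for each of the 52 genes, grouped by role, with the standard error as a bar and open symbols for genes not called. POLR1E, IMP3, POLR1A and RRP12 are called and lie to the right of 0; NPM1 lies farthest to the left.

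Of the 7 RNA polymerase I genes 2 rose and 3 fell, 28.6% and 42.9%, near the shares of all tested genes. POLR1E read 1144, 1214 and 1229 in DMSO and 2632, 2791 and 2536 with doxorubicin, a fold of 2.22 (log2 change 1.03, SE 0.067, adjusted p = 2.65e-08). POLR1A read 1766, 1570 and 1659 against 2700, 1960 and 2642, higher in each treated library though replicate 2 was less so (adjusted p = 0.000923). UBTF fell from 3433, 3336 and 3335 reads to 1806, 1963 and 1853, a fold of 0.556 (adjusted p = 3.04e-07), and RRN3 and TAF1D were 31.1% and 34.4% lower. POLR1B and POLR1C did not pass the test, with log2 changes of -0.10 each (SE 0.076 and 0.084).

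Of the snoRNP genes 6 of 8 fell. FBL read 7227, 6705 and 6414 in DMSO and 3319, 4064 and 3534 with doxorubicin, and EMG1 2231, 1877 and 1805 against 1032, 1219 and 1068, with folds of 0.537 and 0.561. NOLC1, which fell most of this group in GAS41-KO, read 10820, 10776 and 11538 in DMSO and 10562, 10103 and 10049 with doxorubicin and was not called (log2 change -0.11, SE 0.071). Of the small-subunit genes 12 of 18 fell and 2 rose. UTP18 read 2415, 2415 and 2408 against 1303, 1462 and 1289 (adjusted p = 6.01e-07), and UTP20 1208 ± 155 against 587 ± 55.5. DDX10, higher in GAS41-KO, fell here from 1373, 1566 and 1702 to 781, 852 and 817. IMP3 rose from 1742, 1468 and 1433 to 2403, 2737 and 2442 and RRP12 from 2089, 1908 and 1647 to 2557, 2682 and 2595, in each case without overlap.

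Of the large-subunit genes 11 of 15 fell and 0 rose by limma. GNL3 had 5239, 5521 and 5923 reads in DMSO and 2935, 3225 and 2933 with doxorubicin, and DDX18 4674, 4104 and 4631 against 2439, 2606 and 2532. The chaperones all fell. NPM1 fell the most of the 52 genes, from 58684, 47797 and 51543 reads to 24111, 25769 and 25027, a fold of 0.474 (log2 change -1.07, SE 0.088, adjusted p = 2.58e-07). NCL read 28294, 30736 and 33029 against 21065, 23583 and 20280. LYAR and DDX21 fell by 0.23 and 0.25 on the log2 scale, calls that were lost, among other settings, without DMSO replicate 3 (adjusted p = 0.133 and 0.0863). Of the 18 genes with CACGTG in a promoter window, 14 fell with doxorubicin, where 36 of all 52 (69.2%) fell. The other 4 were not called: BYSL, NOL6, WDR43 and NOP2. BYSL was 1436 ± 54.0 in DMSO and 1431 ± 80.1 with doxorubicin, and NOP2 2747 ± 132 and 2635 ± 133.

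Set beside the knockout, which shares no library with it, doxorubicin lowered 33 of the 47 genes that fell in GAS41-KO (70.2%), and these made up 91.7% of its own 36. Of all 52 genes 69.2% fell with doxorubicin and 90.4% in GAS41-KO, so shares near these follow from the 2 counts alone and show no link between them. Over all genes tested in both tables the shares were 51.8% and 41.9%. The Pearson r of the log2 changes over the 52 genes was 0.07. POLR1A, POLR1E and RRP12 fell in GAS41-KO and rose with doxorubicin. Among the other pathway genes 76 of 144 fell and 19 rose with doxorubicin (52.8% and 13.2%), where 33.4% and 32.3% of all tested genes did. POLR3G fell from 1988 ± 163 reads to 755 ± 18.3, RSL24D1 of the pre-60S particle from 4752 ± 472 to 2041 ± 99.3, and the exosome subunit EXOSC8 from 1117 ± 70.2 to 520 ± 39.4, while TAF1C of the factor SL1 rose from 1213 ± 117 to 1864 ± 31.0.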

How the data were processed

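The deposited values are log2, variance-stabilized by the authors after division of reads by size factors. Inverting the transformation gave numbers within 0.01 of whole reads in all cases. The submitters' processing notes name CASAVA 1.4, Trimmomatic 0.36, Bowtie 1.0.1, TopHat2 2.1.0, HTSeq, DESeq2, hg19 and mm9 without their roles; the gene annotation is not given in the sources used here. Per the labels, GAS41 libraries were poly-A selected and run on a BGISEQ-500. A gene needed 10 recovered reads in 3 or more libraries to be tested, which 14505 (GAS41) and 14195 (doxorubicin) had. The test was limma 3.58.1 (R 4.3.3, prior variance following the mean), with all 12 GAS41 libraries in 1 fit and the 6 doxorubicin libraries in another, Benjamini-Hochberg adjusted over all tested genes. The fit was tested on simulated data. The main test was set for the deposited log2 values, and count models were not run on the recovered reads. Voom on those reads was run as an alternative.

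The 52 genes, the lists and the tests were chosen with earlier results of these data known. Single genes with every library's value are, per role, the 2 with the smallest p in GAS41-KO against WT, mut rescue against wt rescue and doxorubicin against DMSO, and any moving against its role; of each other list, the 2 largest called changes per comparison may be named. Values of other genes, among them NOP58, LYAR, GNL3 and DDX21 in wt rescue and RRP12 in mut rescue, were chosen after they were seen. Promoters are from RefSeq (GRCh38.p14). Alternatives were filters on reads, quantile normalization, voom on recovered reads, no trend, fewer groups in the fit, a minimum change, the replicate number as a block, and leaving out libraries. The 26 ChIP and input samples were not used here. Plots used Python 3.11.15 and matplotlib 3.10.9.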

Additional observations from a re-analysis of the deposited data

How the results depend on the processing

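Calls over all tested genes, not this list, set the adjusted p, and 3 libraries per group limit precision; genes of few reads, such as PPAN, have compressed log2 changes. When each library was left out in turn, the counts ranged as follows: genes falling in GAS41-KO (43 to 47, median -0.47 to -0.44), rising in wt rescue over GAS41-KO (48 to 49), lower in mut rescue than wt rescue (47 to 48), higher in wt rescue than WT (36 to 39) and falling with doxorubicin (34 to 36), rising in mut rescue over GAS41-KO (20 to 32), lower in mut rescue than WT (19 to 27), falling in wt rescue over GAS41-KO (1 to 2), higher in mut rescue than wt rescue (2 to 4) and lower in wt rescue than WT (1 to 4). With wt rescue replicate 1 alone, 1 gene fell in wt rescue over GAS41-KO, 1 was higher in mut rescue than wt rescue and 0 were lower in wt rescue than WT, the medians of the last 2 comparisons were -0.47 and 0.26, TAF1D changed by 0.03 in wt rescue over GAS41-KO, NOP58 by -0.29 in mut rescue against wt rescue and LYAR by 0.24 in wt rescue against WT. With quantile normalization the medians were 0.66 for wt rescue over GAS41-KO, -0.41 for mut rescue against wt rescue and 0.25 for wt rescue over WT, where 3 genes were lower and NPM1 changed by -0.04. With voom the medians were -0.49 for GAS41-KO and -0.48 for doxorubicin. A minimum change of 0.3 left 17 genes rising in mut rescue over GAS41-KO and, against WT, 1 higher and 9 lower. The cause was not tested. The replicate numbers were not taken to pair the samples, since not every same-number correlation exceeded 0.1: 11 of 18 of the GAS41 experiment did (from -0.39 to 0.478; 6 of 6 for number 1, 5 of 6 for number 2 and 0 of 6 for number 3), 1 of 3 of the doxorubicin experiment did (from -0.393 to 0.15), and a library correlated best with its own number in 23 of 42 cases. With the replicate number as a block, 40 genes rose in mut rescue over GAS41-KO and 2 were lower in wt rescue than WT; the other counts were 47 falling in GAS41-KO, 48 rising in wt rescue over GAS41-KO, 48 lower in mut rescue than wt rescue and 36 falling with doxorubicin.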
